A study of Rattus norvegicus with 4 samples.

Results

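The insulin-like growth factor (IGF) system described here is a set of ligand, receptor and binding protein genes. It holds Igf1, Igf2, Igf1r, Igf2r and Igfbp2 to Igfbp7, chosen by gene symbol from the mRNA table. Of these 10 genes, 9 had values, among 13114 gene names in all, and Igf1r was not analysed here. The study describes the cells as rat primary Sertoli cells, the supporting cells of the seminiferous tubule. They came from the testes of young Sprague-Dawley rats, were grown in medium with fetal bovine serum and were used after passage. Cells of 2 libraries were exposed for 24 h to 4-nonylphenol (4-NP), a surfactant breakdown product with weak estrogen-like activity, and 2 further libraries came from the control group. Total RNA was sequenced after removal of ribosomal RNA. No label ties the libraries to separate animals or cultures, and the p-values below therefore rest on the spread between these libraries alone, which may be technical.

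IGF1 and IGF2 are small secreted hormones related to insulin that act through the receptor tyrosine kinase IGF1R. IGF2R, also the receptor for mannose 6-phosphate, takes up IGF2 for degradation and carries newly made enzymes to lysosomes. The IGF-binding proteins hold the ligands outside the cell, prolong their life and limit or direct their access to the receptor, and several of them also bind cell surfaces or matrix. In the mouse testis, insulin-family signalling is known for its part in the multiplication of Sertoli cells.

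The treated libraries held 96565700 to 104247700 mapped reads and the control libraries 116402700 to 118779500, as computed from the circRNA table, and the 2 libraries of a group correlated at 0.95 (4-NP-treated) and 0.94 (control) over the 8012 genes tested, on the log2 scale. This correlation is taken across genes, which are no independent replicates. Of the Sertoli cell markers, Sox9, Gata4, Fshr and Dmrt1 were under 1 FPKM (fragments scaled to transcript length and library depth) even in controls, and Amh was not analysed here. Clu, Inha, Cldn11 and Wt1 averaged 66.1, 16.3, 11.2 and 3.58 FPKM in control and 14.6, 1.72, 0.248 and 0.757 FPKM in treated cells. These 4 were the ones tested, and all were lower (limma, adjusted p under 0.05), as were 23.1% of all genes tested. Cldn11 and Wt1 averaged under 1 FPKM in treated cells and passed the filter of a mean of at least 1 FPKM through the controls. Wt1 was near the threshold (limma, adjusted p = 0.0453), with 0.261 and 1.25 FPKM in the treated libraries. Rhox5 averaged 1.25 FPKM in controls and was not tested. All 8 markers of smooth muscle, which peritubular myoid cells share, were tested and were lower in treated cells, against 23.1% of all genes tested. Their summed levels were 648 to 660 FPKM in treated and 7891 to 7977 FPKM in control libraries. Of the 6 fibroblast markers, 3 were lower and 1 was higher, against 23.1% and 24.7% of all genes tested. Their summed level was 702 to 750 FPKM in treated and 3240.2 to 3241.2 FPKM in control libraries. The higher marker was Dcn, at 445 and 494 FPKM in treated and at 93.8 and 97.4 FPKM in control libraries. The Sertoli cell list summed to 17.1 to 18.8 FPKM in treated and 96.1 to 104 FPKM in control libraries. The macrophage (1.37 to 1.50 against 7.39 to 8.39 FPKM), endothelial (0.430 to 0.636 against 7.15 to 7.73 FPKM) and germ cell lists (4.35 to 5.51 against 22.0 to 22.3 FPKM) also summed lower in treated than in control libraries. Of the 6 Leydig cell markers 3 had values, and Star, the cholesterol transporter of steroid synthesis, made up nearly all of their sum (788 to 814 FPKM in treated and 306 to 311 FPKM in control libraries), while Cyp11a1, the first enzyme of that synthesis, averaged 0.115 FPKM in treated and 1.10 FPKM in control cells. The macrophage markers Cd68, Adgre1, Csf1r and Ptprc were under 1 FPKM in controls. All of these sums but the Leydig cell one were lower in treated cells, as the called IGF genes were, and their part in the results below was not tested. In bulk RNA, fewer cells of a type and less RNA per cell cannot be told apart. In controls the Sertoli cell sum was far below the smooth muscle and fibroblast sums, though sums of different genes give no cell numbers. The IGF levels below are those of the whole culture and were not assigned to a cell type.

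The regions around the start sites of 4 members are printed to show the sequence where these genes begin. Igfbp3 and Igf1 had the largest falls, Igfbp7 had the highest control level, and Igf2r had the smallest fall that passed the test. The sequences are the RefSeq windows on build GRCr8, from 250 bases before to 50 bases after the start site, read 5′ to 3′ on the gene's strand. Capitals mark matches on either strand to the TATA box TATAAA, the GC box GGGCGG, the CCAAT box CCAAT, the E-box CACGTG, the AP-1 motif TGANTCA or the CRE core TGACGT.
Igfbp3, chr14:86277895-86278194, minus strand: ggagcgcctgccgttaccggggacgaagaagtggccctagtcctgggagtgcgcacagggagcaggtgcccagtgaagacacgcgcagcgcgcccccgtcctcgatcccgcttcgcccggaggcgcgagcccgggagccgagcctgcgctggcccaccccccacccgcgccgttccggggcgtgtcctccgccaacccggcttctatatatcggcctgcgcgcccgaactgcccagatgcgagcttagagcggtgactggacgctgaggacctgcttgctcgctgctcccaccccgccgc
Igf1, chr7:24172282-24172581, plus strand: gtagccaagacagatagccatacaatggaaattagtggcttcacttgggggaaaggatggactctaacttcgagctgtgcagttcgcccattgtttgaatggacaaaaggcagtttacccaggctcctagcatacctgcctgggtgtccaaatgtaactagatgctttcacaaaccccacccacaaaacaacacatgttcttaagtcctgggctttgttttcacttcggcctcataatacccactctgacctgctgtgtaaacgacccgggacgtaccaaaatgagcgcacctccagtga
Igfbp7, chr14:31091486-31091785, plus strand: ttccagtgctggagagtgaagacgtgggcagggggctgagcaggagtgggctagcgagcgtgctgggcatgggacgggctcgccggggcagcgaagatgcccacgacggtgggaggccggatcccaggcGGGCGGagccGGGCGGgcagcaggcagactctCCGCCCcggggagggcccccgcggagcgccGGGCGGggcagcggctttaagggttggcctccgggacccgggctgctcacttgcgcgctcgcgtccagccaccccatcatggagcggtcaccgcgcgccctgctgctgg
Igf2r, chr1:50526628-50526927, plus strand: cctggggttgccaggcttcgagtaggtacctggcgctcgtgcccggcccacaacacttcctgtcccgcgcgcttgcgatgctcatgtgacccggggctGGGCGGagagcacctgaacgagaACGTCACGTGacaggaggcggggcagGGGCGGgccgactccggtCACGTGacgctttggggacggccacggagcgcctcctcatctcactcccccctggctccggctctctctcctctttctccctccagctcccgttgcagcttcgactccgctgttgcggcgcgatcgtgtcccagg

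Windows were found for all 9 members with values, and Igf2 had more than 1 of them. The GC box occurred in 4 members, Igf2, Igf2r, Igfbp2 and Igfbp7, against 33.1% of all 33465 windows of 300 bases. Igfbp7 held 4 of them, beginning at -121, -111, -89 and -59 relative to the start site. The E-box occurred in Igf2r and Igfbp2, against 6.42% of all windows. In Igf2r the first E-box shares bases with the CRE core, which 7.94% of all windows hold. The TATA box was found in Igfbp4 alone among the members, against 14.2% of all windows. The CCAAT box and the AP-1 motif, held by 37.5% and 7.33% of all windows, had no match in these members. Igf1, Igfbp3, Igfbp5 and Igfbp6 held none of the 6 motifs, which says only that these letters are not in the window. The printed windows also differ in base composition. G and C made up 74.3% of the bases in Igfbp7, 71.7% in Igfbp3, 68.0% in Igf2r and 48.3% in Igf1, against a median of 51.7% over all windows.

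The comparison asked how transcripts of the IGF system differed between 4-NP-treated and control cells. Igf1, one of the ligands, and all 6 binding proteins measured fell in treated cells, and Igf2r fell slightly. In all, 8 of the 9 members were lower (limma, Benjamini-Hochberg adjusted p under 0.05 over all genes tested), where 23.1% of the 8012 genes tested were lower. No member was called higher by limma (0 of 9, and 0 at an unadjusted p under 0.05), where 24.7% of genes tested were higher. Both treated libraries lay below both controls for these 8 members, as they did for 36.3% of genes tested. The median log2 change of the members was -2.54, against 0.05 over all genes tested. Changes are given for log2(FPKM + 1), and for genes of low level they come out smaller than the ratio of FPKM itself. All 9 members passed the filter of a mean of at least 1 FPKM, but Igf1, Igfbp3 and Igfbp5 were under 1 FPKM in both treated libraries and passed through the controls.

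**Figure D1:**
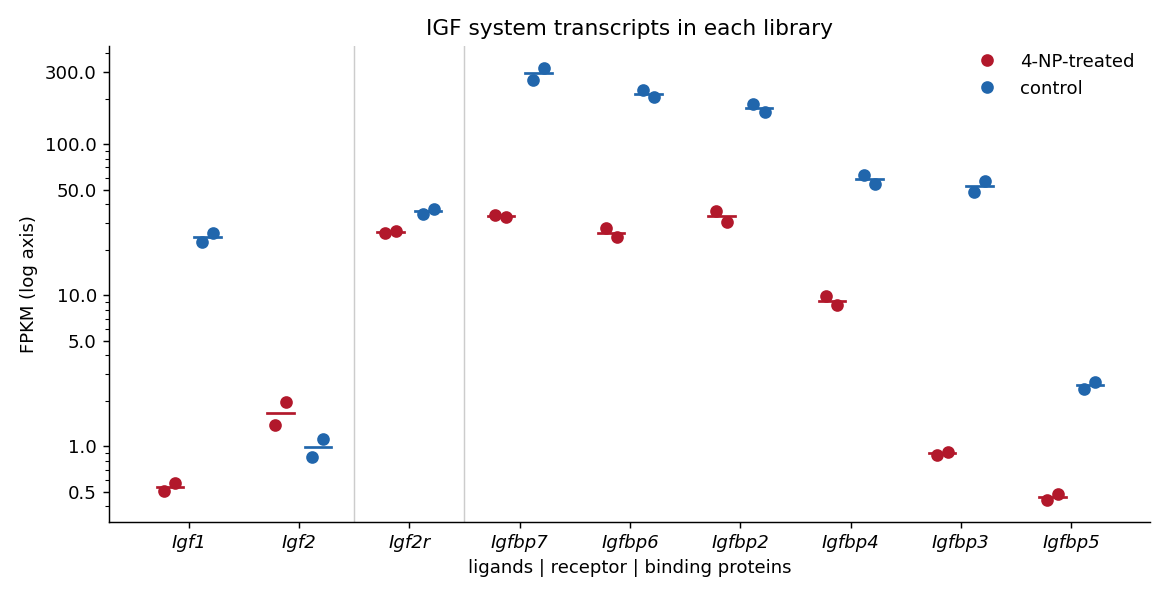
FPKM of each IGF system gene (log axis) in the 2 4-NP-treated and 2 control libraries, with points for libraries and short lines for group means. Both treated libraries lay below both controls for 8 of the 9 genes and above them for Igf2.

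Of the ligands, Igf1 had the larger change and fell to below 1 FPKM in treated cells. It was at 0.504 and 0.570 FPKM in the treated libraries and at 22.4 and 25.9 FPKM in the control libraries. The groups were far apart, and the treated mean was 2.23% of the control mean. The log2 change was -4.03 ± 0.14 (SE, limma, adjusted p = 0.000866), the 54th lowest of the 8012 genes tested. With a pseudocount of 0.1 FPKM the log2 change was -5.25.

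The Igf1 level came from 4 transcripts on chromosome 7, spanning 28412198 to 28486609 in the deposited coordinates. Their genome build is not stated in the sources read here, and they are not those of GRCr8. The transcript ENSRNOT00000038780, with 4 exons and 1827 bases, carried most of the signal in every library. It was at 0.366 and 0.546 FPKM in treated and at 16.6 and 20.7 FPKM in control libraries. The short transcript ENSRNOT00000005995, with 6 exons and 772 bases, was listed at 0 and 0.0242 FPKM in treated and at 2.42 and 2.76 FPKM in control libraries. A value of 0 may come from a failed estimate. Since 3 of the 4 transcripts were listed at 0 in at least 1 treated library, only the main transcript and the sum are compared.

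Igf2, the ligand most abundant before birth in rodents, did not follow Igf1. It was at 1.38 and 1.95 FPKM in treated and at 0.849 and 1.12 FPKM in control libraries. The groups did not overlap, but 40.1% of all genes tested also had both treated libraries above both controls, and the log2 change of 0.42 ± 0.20 did not pass the test (SE, limma, adjusted p = 0.169, 95% interval -0.15 to 0.99). The 2 Igf2 transcripts on chromosome 1 (215828102 to 215836641, minus strand) were assigned unevenly within the treated group. ENSRNOT00000080246 was at 1.28 and 0 FPKM in treated and at 0.772 and 1.09 FPKM in control libraries, while ENSRNOT00000073850 was at 0.101 and 1.95 FPKM in treated and at 0.0768 and 0.0396 FPKM in control libraries. Here too a transcript was listed at 0, and only the sum of the pair is compared.

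**Figure D2:**
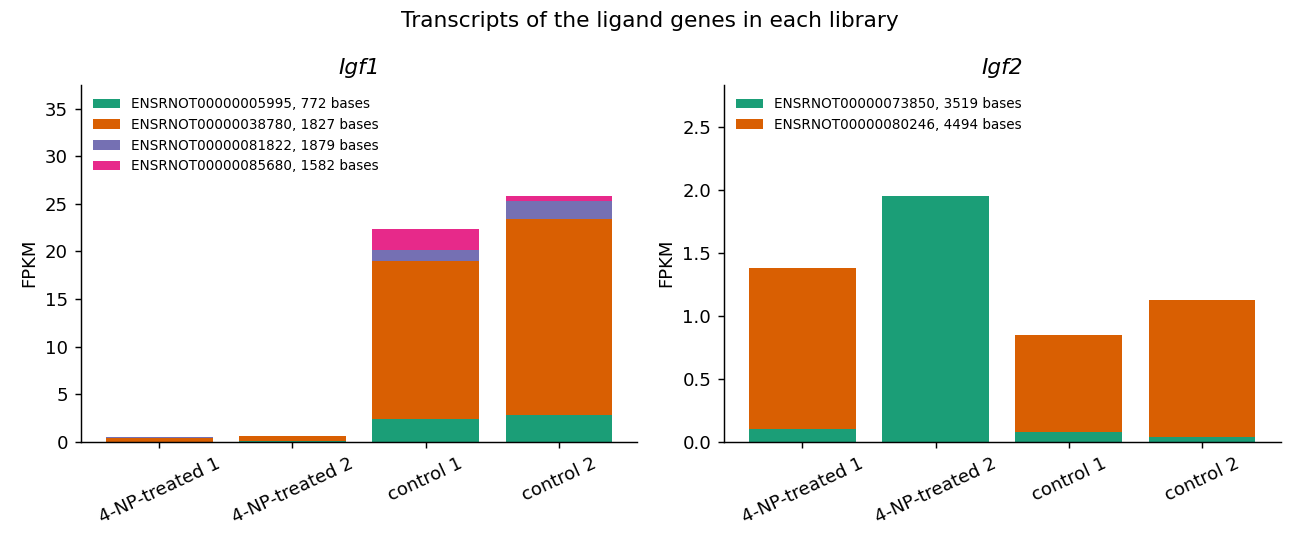
Stacked FPKM of the Igf1 (left) and Igf2 (right) transcripts in each library, 1 colour per transcript. Igf1 fell to under 1 FPKM in both treated libraries, and Igf2 was assigned to a different transcript in treated library 2 than in the other 3.

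The order of the ligands differed between the groups, with Igf2 above Igf1 in treated cells and below it in controls. The ratio of Igf1 to Igf2 FPKM was 0.365 and 0.292 in treated libraries and 26.4 and 23.0 in control libraries. The summed ligand level was 2.20 ± 0.452 FPKM in treated and 25.1 ± 2.67 FPKM in control cells (SD, n = 2 each).

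The receptor Igf2r changed least among the genes that passed. It was at 25.9 and 26.7 FPKM in treated and at 34.5 and 37.3 FPKM in control libraries, without overlap. The treated mean was 73.3% of the control mean, and the log2 change came to -0.43 ± 0.08 (SE, limma, adjusted p = 0.0171). The call was lost without treated replicate 1 (adjusted p = 0.0817), treated replicate 2 (adjusted p = 0.0718) or control replicate 2 (adjusted p = 0.0682) by limma, and the range over 12 alternatives was 0.0059 to 0.0817. The deposited coordinates place its 48 exons on the plus strand of chromosome 1 from 48176106 to 48264477.

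A long noncoding RNA listed within the Igf2r span was also lower. MSTRG.421.3 has 2 exons and 2888 bases and was assigned the name RF00561, not Igf2r. It lies on the minus strand from 48198794 to 48206412, so that its 3′ end is 22688 bases into Igf2r. It was at 0.0612 and 0.0377 FPKM in treated and at 1.14 and 1.49 FPKM in control libraries. Every entry of the lncRNA table carries the authors' mark for a change, which makes this a description with no test. No other listed lncRNA lay within 50000 bases of a member.

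Among the binding proteins, Igfbp3 fell the most. Igfbp3, the main carrier of IGFs in blood, was at 0.879 and 0.913 FPKM in treated and at 48.1 and 57.2 FPKM in control libraries. The treated mean was 1.70% of the control mean, a 58.7-fold difference. Its log2 change of -4.82 ± 0.13 (SE, limma, adjusted p = 0.000781) was the lowest among the members and the 24th lowest of all genes tested. The transcript has 5 exons on chromosome 14, from 87457647 to 87465374.

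Igfbp7 and Igfbp6 were the most abundant binding proteins in controls and fell by similar factors. Igfbp7, which binds IGFs weakly and associates with matrix, was at 33.8 and 32.9 FPKM in treated and at 267 and 321 FPKM in control libraries. Igfbp6, which prefers IGF2, was at 27.8 and 24.1 FPKM in treated and at 228 and 204 FPKM in control libraries. Neither pair of groups overlapped. The difference was 8.82-fold for Igfbp7 and 8.32-fold for Igfbp6, with log2 changes of -3.10 ± 0.11 and -3.01 ± 0.11 (SE, limma, adjusted p = 0.000875 and 0.00087). With Igf1 and Igfbp3 they made 4 of 9 members at or below an eighth of the control level, where 5.72% of genes tested were that low. Of these, Igf1 and Igfbp3 passed the filter only through the controls.

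Igfbp2 and Igfbp4 fell less. Igfbp2, which can attach to integrins, was at 36.1 and 30.5 FPKM in treated and at 185 and 163 FPKM in control libraries, a 5.23-fold difference (log2 change -2.35 ± 0.12, SE, limma, adjusted p = 0.00147). Igfbp4, an inhibitor of IGF action that the protease PAPP-A cleaves, was at 9.82 and 8.55 FPKM in treated and at 62.7 and 54.1 FPKM in control libraries. That was a 6.36-fold difference (log2 change -2.54 ± 0.12, SE, limma, adjusted p = 0.00133). The profiles of this pair over the 4 libraries were closer to each other than those of any other pair of called members, with a Euclidean distance of 0.195 between centred log2 values. Igfbp6 and Igfbp7 followed at 0.328.

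Igfbp5, which binds matrix and bone mineral, was low in both groups, with 0.441 and 0.481 FPKM in treated and 2.38 and 2.67 FPKM in control libraries. The groups did not overlap. The ratio of means gave a 5.48-fold difference, close to that of Igfbp2, whereas the log2 change was -1.27 ± 0.16 with a pseudocount of 1 FPKM (SE, limma, adjusted p = 0.00729) and -2.23 with 0.1 FPKM. Igfbp5 and Igfbp2 are neighbours on chromosome 9 in opposite orientation, with 5421 bases between their 3′ ends. In controls Igfbp5 averaged 2.53 ± 0.21 FPKM and Igfbp2 174 ± 15.6 FPKM (SD, n = 2 each).

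**Figure D3:**
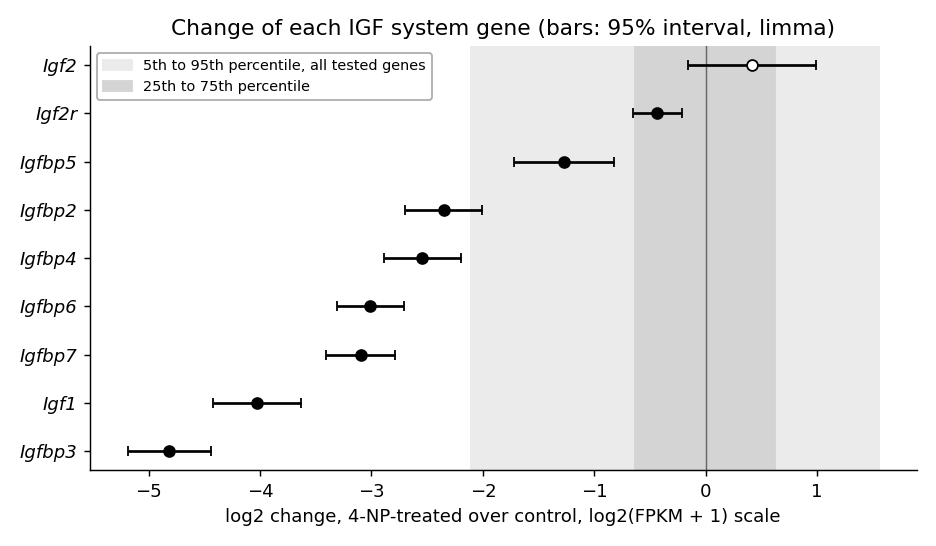
Log2 change of each gene, 4-NP-treated over control, with 95% intervals from limma, filled points past the threshold and grey bands for all genes tested. The points run down to -4.82 for Igfbp3 and only Igf2, at 0.42, lies above 0.

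The binding proteins fell by factors of 5.23 to 58.7, and the make-up of their sum differed. Beside lower sums of every marker list given above but the Leydig cell one, the binding protein sum was also lower. It was 103 ± 8.07 FPKM in treated and 798 ± 6.35 FPKM in control cells (SD, n = 2 each), a 7.73-fold difference. Igfbp2 took 33.2% and 31.3% of the sum in treated libraries and 23.3% and 20.3% in control libraries. Igfbp3 took 0.807% and 0.936% in treated libraries and 6.06% and 7.12% in control libraries. Igfbp4 took 9.02% and 8.77% in treated libraries and 7.90% and 6.75% in control libraries. The groups did not overlap for these 3 genes, nor for Igfbp5, which took 0.405% and 0.493% in treated libraries and 0.300% and 0.333% in control libraries. The shares are parts of the same sum, so a smaller share of any gene raises the others, and they are not separate changes. The shares of Igfbp6 (25.5% and 24.8% in treated, 28.7% and 25.5% in control libraries) and Igfbp7 (31.1% and 33.8% in treated, 33.7% and 40.0% in control libraries) met or overlapped between the groups. The ratio of Igfbp2 to Igfbp3 FPKM was 41.1 and 33.4 in treated libraries and 3.85 and 2.85 in control libraries. An exact permutation test of 2 libraries per group has 0.333 as its smallest two-sided p, so these ratios are given without a test.

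**Figure D4:**
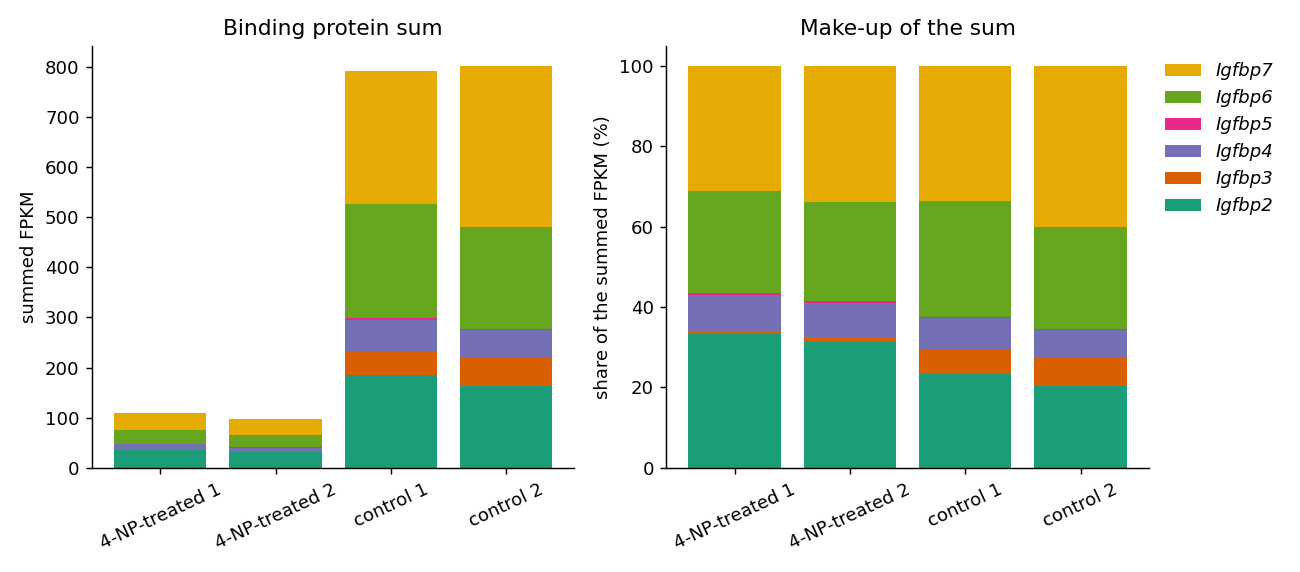
Summed FPKM of the 6 binding protein genes (left) and the percent of that sum from each gene (right) in the 2 4-NP-treated and 2 control libraries. The sum fell to about 100 FPKM in treated libraries while the share of Igfbp2 was larger and that of Igfbp3 smaller.

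The order of levels, which FPKM allows because it is scaled to length, also differed. In treated cells it ran Igfbp7, Igfbp2, Igf2r, Igfbp6, Igfbp4, Igf2, Igfbp3, Igf1 and Igfbp5. Neighbours whose library ranges overlapped were Igfbp7 and Igfbp2, and Igf2r and Igfbp6. In control cells it ran Igfbp7, Igfbp6, Igfbp2, Igfbp4, Igfbp3, Igf2r, Igf1, Igfbp5 and Igf2, and the ranges overlapped only for Igfbp4 and Igfbp3. Igf2r stood with the most abundant binding proteins in treated cells. The ratio of Igfbp6 to Igf2r was 1.07 and 0.903 in treated libraries and 6.60 and 5.48 in control libraries.

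The genes whose profiles over the 4 libraries were nearest to that of Igfbp3 were Cav1, a coat protein of caveolae, S100a4, a calcium-binding protein, and Mustn1, a nuclear protein of muscle and bone. Their Euclidean distances between centred log2 values were 0.138, 0.150 and 0.170. Cav1 was at 4.97 and 5.00 FPKM in treated and at 172 and 184 FPKM in control libraries. Nearest to Igf2r, the called member that changed least, were Arid1a, Sppl2a and Nono, at distances of 0.0238, 0.0240 and 0.0257. These distances rest on log2(FPKM + 1), and near genes can differ in the ratio of FPKM. Treated means were 2.79%, 2.82% and 0.573% of control for Cav1, S100a4 and Mustn1, beside 1.70% for Igfbp3. They were 56.6%, 71.5% and 73.1% for Arid1a, Sppl2a and Nono, beside 73.3% for Igf2r. Arid1a did not pass (limma, adjusted p = 0.0893). The search covered 8012 genes over only 4 libraries, so such likeness is a description.

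Genes around the IGF system came from 4 lists. Over the lists together 35 genes were tested, 4 higher and 6 lower, with a median log2 change of 0.02, where 24.7% of all genes tested were higher and 23.1% lower, so together they held no larger share of calls than all genes. In the list of IGF carriers and proteases 9 of 12 genes had values and 6 were tested, of which 1 was higher and 2 were lower (24.7% and 23.1% over all genes tested). Stc1, a stanniocalcin that inhibits PAPP-A, was at 0.151 and 0.185 FPKM in treated and at 3.10 and 2.88 FPKM in control libraries, with a log2 change of -1.77 (limma, SE 0.15, adjusted p = 0.00358) that became -3.53 with a pseudocount of 0.1 FPKM. It passed the filter only through the controls. Its relative Stc2 was at 58.7 and 63.3 FPKM in treated and at 67.6 and 65.4 FPKM in control libraries and did not pass. Htra1, a secreted serine protease that cleaves IGF-binding proteins, was at 102 and 104 FPKM in treated and at 196 and 203 FPKM in control libraries (log2 change -0.94 ± 0.05, SE, limma, adjusted p = 0.00168). Mmp2, a gelatinase that can also cut binding proteins, went the other way, with 155 and 149 FPKM in treated and 87.5 and 85.0 FPKM in control libraries (log2 change 0.81 ± 0.06, SE, limma, adjusted p = 0.00221).

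In the PI3K-AKT-mTOR-FOXO list, which also holds regulators of AKT and mTORC1, 18 of 26 genes were tested. Of these, 3 were higher and 3 lower, against 24.7% and 23.1% of all genes tested. Trib3, a pseudokinase that can bind AKT, was at 208 and 189 FPKM in treated and at 73.9 and 69.7 FPKM in control libraries. Sesn2, which restrains mTORC1, was at 26.0 and 24.4 FPKM in treated and at 10.6 and 9.66 FPKM in control libraries. Neither pair of groups overlapped, but 40.1% of genes tested also had both treated libraries above both controls. The log2 changes were 1.46 ± 0.08 and 1.23 ± 0.09 (SE, limma, adjusted p = 0.00155 and 0.00273). Rptor, the scaffold of mTORC1, was also called higher at 0.76 ± 0.16, and Ddit4, which inhibits mTORC1, and Foxo3, a transcription factor held back by AKT, were called lower at -0.98 ± 0.21 and -0.94 ± 0.16 on the log2 scale (SE). Rptor and Foxo3 lost their calls without any one of the 4 libraries (adjusted p by limma of 0.0538 to 0.0968), and Ddit4 without treated replicate 1, control replicate 1 or control replicate 2 (0.0772 to 0.127).

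Of 14 insulin family receptors and adaptors, 9 were tested, with 0 higher and 1 lower, against 24.7% and 23.1% of all genes tested. The lower gene was Irs1, an adaptor of the insulin and IGF1 receptors. It was at 0.830 and 0.937 FPKM in treated and at 2.86 and 2.20 FPKM in control libraries (log2 change -0.90 ± 0.18, SE, limma, adjusted p = 0.0227), and it did not pass without treated replicate 1 (adjusted p = 0.0975), treated replicate 2 (adjusted p = 0.0863) or control replicate 1 (adjusted p = 0.0549). Like Stc1, it passed the filter only through the controls. Insr, the insulin receptor, was listed at 3.88 and 0 FPKM in treated and at 3.38 and 0.0115 FPKM in control libraries, so its values did not repeat within either group. The RNA-binding proteins Igf2bp2 and Igf2bp3, which bind Igf2 mRNA, were tested and did not pass, with log2 changes of 0.02 and 0.22.

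**Figure D5:**
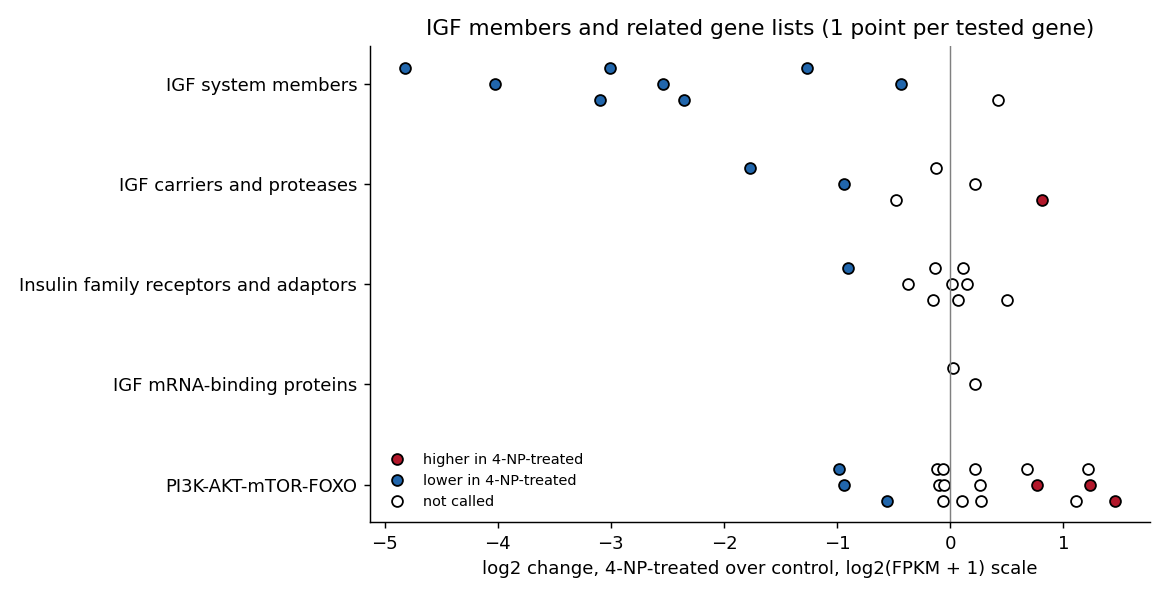
Log2 change of each tested gene, 4-NP-treated over control, for the IGF members (top row) and 4 lists of related genes, coloured by call. The members run from -4.82 to 0.42, while the related genes lie between -1.77 (Stc1, which is at -3.53 with a pseudocount of 0.1 FPKM) and 1.46.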

How the data were processed

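RNA of 2 4-NP-treated and 2 control libraries was compared. The groups and replicate numbers came from the sample titles, and columns named NP were matched to the treated samples. HISAT2 and DESeq2 stand in the submitters' processing notes, while the study itself names FastQC and edgeR. Neither source states versions or a genome build. The deposited mRNA and lncRNA values are FPKM of single transcripts. For circRNAs the authors deposited read counts and a signal scaled to mapped reads, whose ratio gave the mapped reads per library. That table names no host genes and was used for depth only. Deposited columns of fold changes, p-values and q-values were not used.

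The mRNA table held 17290 rows, and 1545 that repeated a transcript were dropped. The transcripts of each gene name were added up. limma 3.58.1 (R 4.3.3, variance trend, group as the only term) fitted log2(FPKM + 1) of genes that averaged 1 FPKM or more, two-sided, with Benjamini-Hochberg adjustment at 0.05 over 8012 genes. The fit was tested on simulated data. Because the deposited values are FPKM and not counts, the edgeR test of the study was not run. Fold differences are ratios of mean FPKM.

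The members and gene lists were chosen with earlier results of these data known. Named genes are all members, the 3 highest and 3 lowest called genes of each list, and the 3 nearest profiles to the highest and the lowest called member. A gene of the signalling list that this rule names is not reported here. Stc2, Insr, Igf2bp2 and Igf2bp3 were named after their values were seen. Alternatives were the pseudocount, the filter, scaling, the highest transcript, the variance trend, a replicate block and leaving out each library, where the lone library of a group is assumed to vary like the other group. Python 3.11.15 with pandas 2.3.3, numpy 2.4.6 and matplotlib 3.10.9 did the other steps.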

Additional observations from a re-analysis of the deposited data

How the results depend on the processing

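The IGF members called lower numbered 8 with all libraries and under each alternative to the test, scaling, pseudocount and transcript choice, 7 with a filter at 5 FPKM, which left out Igfbp5, and 7 to 8 when a library was left out, the loss being Igf2r. Igf1, Igfbp2, Igfbp3, Igfbp4, Igfbp6 and Igfbp7 kept their direction and their side of the threshold under all 12 alternatives. Over all genes, 1981 were higher and 1850 lower. The higher calls ranged from 1134 to 1518 and the lower calls from 1270 to 1356 when a library was left out, and 1158 were lower with a filter at 5 FPKM. Scaling by the median ratio moved the median log2 change of all genes from 0.05 to -0.06 and gave 1708 higher and 2101 lower. In the related lists, the 6 lower calls became 2 with a filter at 5 FPKM and 2 to 4 when a library was left out. The log2 ratio of summed FPKM was -3.51 for ligands, -4.16 with the highest transcript per gene. For binding proteins it was -2.95, -3.03 with equal totals, -3.08 with the median ratio and -3.03 to -2.87 without 1 library. For Igf2r it was -0.45, -0.53 with equal totals and -0.58 with the median ratio. No label ties same-numbered libraries together beyond the number, and their deviations correlated at -0.0077. That value does not show whether they share a culture or batch. The replicate block gave 8 members lower, 1684 genes higher and 1532 lower. Irs1, Ddit4 and Rptor lost their calls under it (limma, adjusted p = 0.063, 0.0712 and 0.0589). Igf2 could not be fitted with the filter at 5 FPKM or with the highest transcript. The cause of these shifts was not tested. How near values under 1 FPKM lie to the limit of what these libraries measure was not tested, and no counts per gene were used.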
